A study of Mus musculus with 12 samples.

Results

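The genes described here are 43 mouse genes of synapses and neurons, all found among the 35013 genes listed. They were chosen by symbol, with earlier results of these data known. They were read in KP1, a mouse cell line labelled LUAD (lung adenocarcinoma), by poly-A RNA sequencing. The 4 groups of 3 libraries were KP1 cells with NRF2 overexpression (NRF2 cells) given romidepsin, the same cells given DMSO, KP1 cells with Empty Vector (EV cells) given romidepsin, and EV cells given DMSO. Romidepsin, which blocks class I histone deacetylases (HDACs), was given at 5 nM for 16 h, and NRF2 is the transcription factor of the antioxidant response. The labels name neither the promoter of the vector nor the number of transductions behind each line. The p-values therefore measure the spread between these libraries, which the design text calls biological replicates.

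At a synapse, vesicles loaded with transmitter dock and fuse through SNARE proteins, synaptotagmins and Rab3, while adhesion proteins such as neurexins and neuroligins hold the opposed membranes together and scaffolds such as PSD-95 and the SHANK proteins anchor receptors. Neurofilaments and microtubule-associated proteins give axons and dendrites their shape. Outside neurons many of these genes are kept off by REST, a repressor that binds the RE1 element and recruits CoREST and HDACs.

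The libraries held 16842824 to 28003010 estimated counts, and a floor of 3 counts equals 0.105 to 0.182 CPM (counts relative to the TMM-scaled library size) in 1 library. All counting intervals and floors below reflect the error of counting and nothing else. Replicate 3 of NRF2 cells with DMSO lay farthest from its replicates (root mean square log2 distance 0.465, against 0.255 to 0.350 in the other 11 libraries) and had the highest mitochondrial share, 7.30%, against a lowest share of 4.84%. Nfe2l2, which encodes NRF2, was higher in NRF2 than in EV cells, with a log2 fold change of 1.86 with romidepsin and 1.58 with DMSO (edgeR adjusted p = 2.8e-11 and 7.16e-11). In bulk RNA, fewer expressing cells and less RNA per cell cannot be told apart.

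The labelled cell type was checked against marker lists. Of 17 lung epithelial markers the keratins Krt8, Krt18, Krt7 and Krt19 and the cadherin Cdh1 were abundant in all groups, whereas the lung lineage factor Nkx2-1 averaged at most 0.175 CPM, the surfactant genes Sftpb, Sftpc and Sftpd at most 0.126 CPM, and Sftpa1 had no count. The summed level of that list was 9428 to 9926 CPM in NRF2 cells with romidepsin, 5486 to 6194 CPM in NRF2 cells with DMSO, 6364 to 6511 CPM in EV cells with romidepsin and 3753 to 3790 CPM in EV cells with DMSO. The epithelial surface gene Epcam averaged 7.23 CPM with romidepsin and 0.0657 CPM with DMSO in NRF2 cells, and 3.59 CPM with romidepsin and 0.0307 CPM with DMSO in EV cells. Cdh1 fell, to 227 CPM with romidepsin, against 417 CPM with DMSO, in NRF2 cells and to 246 CPM with romidepsin, against 353 CPM with DMSO, in EV cells (edgeR adjusted p = 3.1e-12 and 5.7e-09). Of the 10 markers tested, 7 rose and 2 fell with romidepsin in NRF2 cells, and 7 rose and 1 fell in EV cells. Keratins thus stood high in every group while the defining genes of alveolar type II cells were at or near 0.

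More of the 43 genes were detected with romidepsin than with DMSO in both lines. A gene was taken as detected in a group when each library held at least 1 count and the 3 together at least 10. In NRF2 cells 34 of the 43 (79.1%) were detected with romidepsin and 24 (55.8%) with DMSO, beside 42.9% and 39.2% of all genes listed. In EV cells 33 (76.7%) were detected with romidepsin and 26 (60.5%) with DMSO, beside 42.2% and 39.1% of all genes listed. With a mean of at least 0.5 CPM in place of that rule, the counts were 28 with romidepsin and 21 with DMSO in NRF2 cells, and 27 with romidepsin and 18 with DMSO in EV cells. All genes listed include 12331 without a count in any library. Of the 27 genes under 1 CPM with DMSO in NRF2 cells, the first rule detected 18 (66.7%) with romidepsin. Among protein-coding genes at that level it detected 30.2%. In EV cells it detected 18 of 28 (64.3%), beside 28.6%. At 0.1 to 0.5 CPM the counts were 6 of 6, beside 76.4%, in NRF2 cells and 8 of 9, beside 74.3%, in EV cells. At 0.5 to 1 CPM all were detected, beside 96.0% and 97.7%.

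The 24 genes detected in NRF2 cells with DMSO were detected in all 4 groups. Another 7 were detected with romidepsin in both lines and with DMSO in neither: Slc17a7, Shank1, Shank3, Nxph4, Dpysl5, Stmn2 and Nefl. No group passed the rule for 8 genes, namely Syt4, Cplx1, Cplx2, Gad1, Nefm, Nefh, Ina and Elavl4, and Ina, which encodes alpha-internexin, had no count in any of the 12 libraries. Of the other 4, Syt1 was detected in EV cells with romidepsin, Stmn3 in NRF2 cells with romidepsin, Ntrk2 in NRF2 cells with romidepsin and EV cells with DMSO, and Shank2 in every group but NRF2 cells with DMSO.

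**Figure D1:**
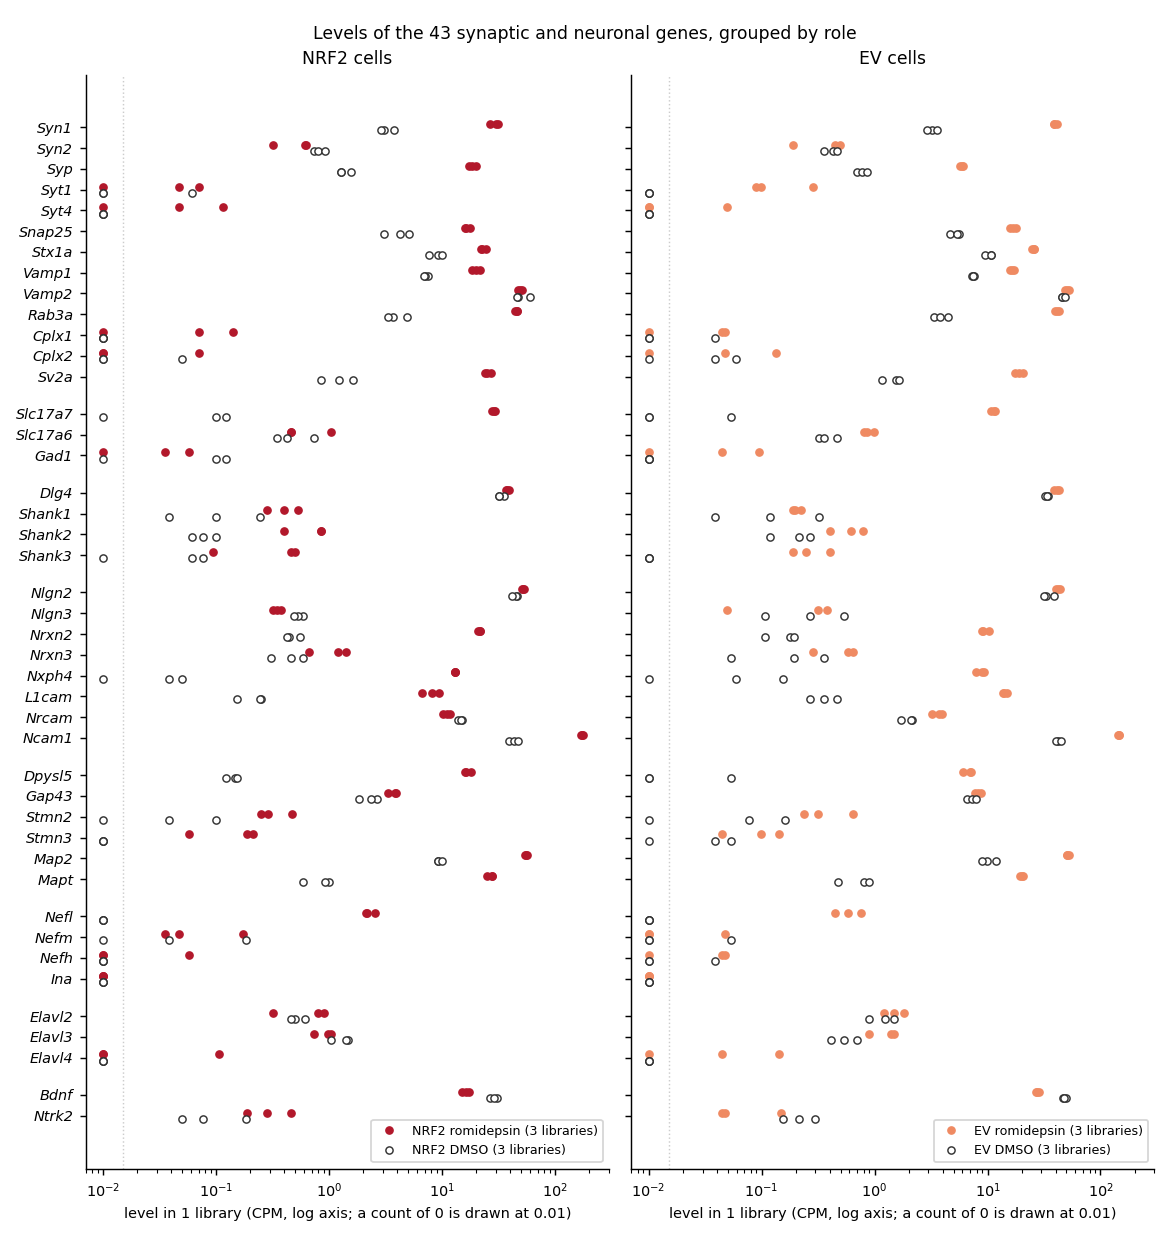
Levels of the 43 genes in each of the 12 libraries, in CPM on a log axis, with NRF2 cells in the left panel and EV cells in the right one; filled points are romidepsin libraries, open points DMSO libraries, and a count of 0 is drawn at 0.01. The points of Slc17a7, Nxph4, Dpysl5 and Nrxn2 lie far apart between treatments, and those of Ina are all at 0.

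A filter on low counts left 29 of the 43 genes for testing, among 13502 genes in all. The 14 left out were Syt1, Syt4, Cplx1, Cplx2, Gad1, Shank1, Shank3, Stmn2, Stmn3, Nefm, Nefh, Ina, Elavl4 and Ntrk2. The filter keeps a gene that is silent with DMSO only where another group expresses it, so a rise of such a gene is in part fixed by the filter. This applies, among others, to Nefl, and to Slc17a7, Nxph4 and Dpysl5, which held at most 9 counts in either DMSO group.

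With romidepsin, 21 of the 29 genes tested were called higher in NRF2 cells, 2 lower and 6 not called. The other 14 of the 43 were not tested. A gene was called at a Benjamini-Hochberg adjusted p under 0.05 in the edgeR quasi-likelihood test. Among all genes tested in NRF2 cells 40.5% were called higher and 39.3% lower. In EV cells 23 of the 29 were called higher, 1 lower and 5 not called. Among all genes tested in EV cells 39.1% were called higher and 37.4% lower. Both lines shared 20 of the rises and 1 fall, where 35.7% and 34.6% of all genes tested were called higher or lower in both.

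A rise of at least 2-fold was called for 18 of the 29 in NRF2 cells and 20 in EV cells, beside 19.2% and 17.8% of all genes tested. At least 10-fold rises in both lines numbered 9 of the 29, namely Rab3a, Sv2a, Slc17a7, Nrxn2, Nxph4, L1cam, Dpysl5, Mapt and Nefl. Among all genes tested that share was 4.04%. Over the 29 genes tested the median log2 fold change was 2.01 in NRF2 cells and 1.48 in EV cells, and it was the same with Nefl set at its bound. Over all genes tested the median was 0.01 in each line. These medians and counts are descriptions, since the list was chosen with earlier results known and the filter favours genes that romidepsin switched on.

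**Figure D2:**
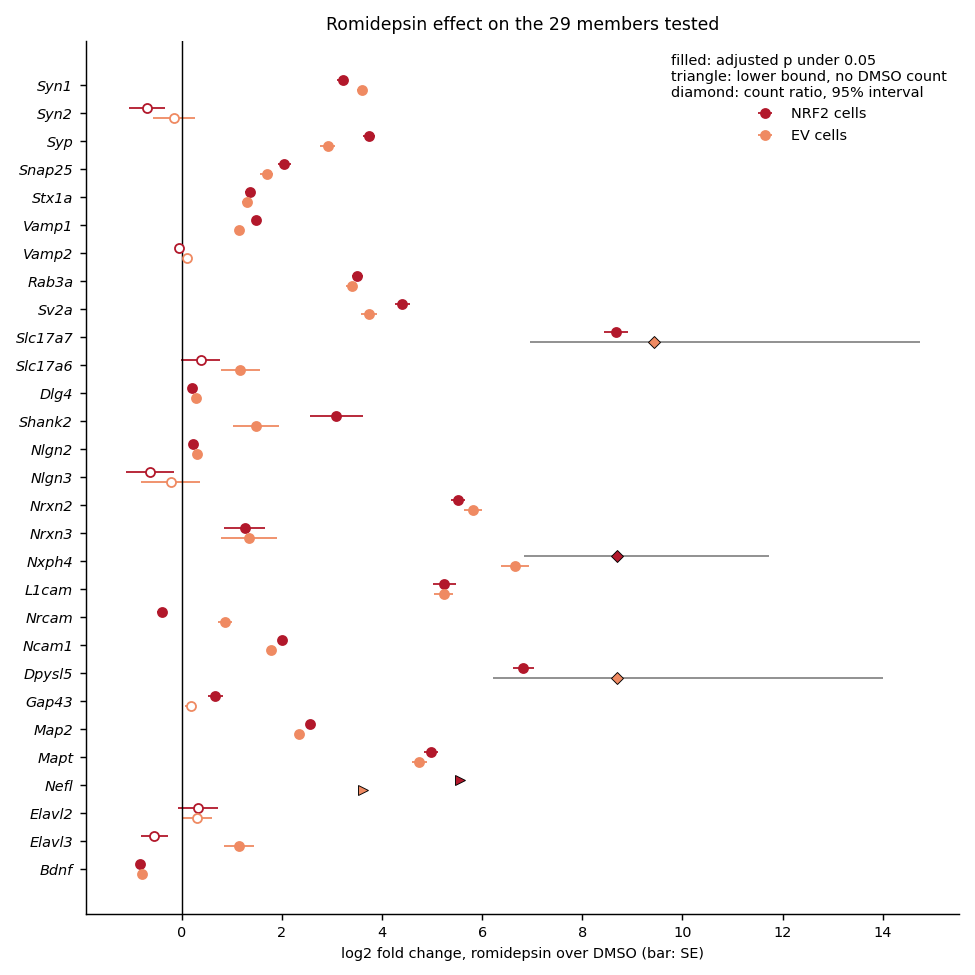
Log2 fold change of romidepsin over DMSO for the 29 genes tested, in NRF2 cells (upper point of each pair) and EV cells (lower point), with SE bars; filled points have an edgeR adjusted p under 0.05, triangles are lower bounds for Nefl, which had no count with DMSO, and diamonds are count ratios with 95% counting intervals where DMSO libraries held 1 or 2 counts. Bdnf lies left of 0 in both lines, and Nrcam lies left of 0 in NRF2 cells and right of it in EV cells.

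The genes were then set beside other genes in classes of level with DMSO, first broad and then narrower. Because the list was chosen with earlier results of these data known, these shares are descriptions and no independent test. Of the 16 genes at 1 CPM or more with DMSO in NRF2 cells, all 16 were tested and 12 (75.0%) were called higher, beside 35.8% of the 11360 genes listed at that level and 36.3% of the protein-coding ones. A rise of at least 2-fold was called for 9 of them (56.2%), beside 11.0% of all genes at that level. That background also holds genes at 100 CPM or more, where no member stood. By narrower class, 5 of 7 rose at least 2-fold at 1 to 5 CPM, beside 31.0% of genes listed. At 5 to 20 CPM 3 of 4 did, beside 19.1%, and at 20 to 100 CPM 1 of 5 did, beside 5.9%. In EV cells 11 of 15 (73.3%) were called higher, beside 34.1% of 11295 genes and 34.6% of the protein-coding ones. At least 2-fold higher in EV cells were 8 of the 15 (53.3%), beside 9.33%. By narrower class these were 3 of 5 at 1 to 5 CPM, beside 29.1%. They were 4 of 5 at 5 to 20 CPM, beside 16.1%, and 1 of 5 at 20 to 100 CPM, beside 4.45%.

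Under 1 CPM with DMSO, 9 of 27 genes (33.3%) were called higher in NRF2 cells. Beside them stood 5.95% of all 23653 genes and 12.9% of the 10367 protein-coding genes listed at that level. Of those protein-coding genes 5459 had no count with DMSO, as against 7 of the 27. By narrower class, 1 of 7 without a count was called higher, beside 2.02% of protein-coding genes. Above 0 to 0.1 CPM 3 of 9 were, beside 13.7%, and at 0.1 to 0.5 CPM 4 of 6 were, beside 32.6%. In EV cells the count was 12 of 28 (42.9%), beside 6.05% of 23718 genes and 13.1% of 10429 protein-coding genes. By narrower class in EV cells, from no count upward, 1 of 7, 3 of 9, 5 of 9 and 3 of 3 were called higher. The protein-coding shares in those classes were 2.17%, 15.3%, 31.5% and 44.0%. The share was below the background in 1 class that held members: between 0.5 and 1 CPM in NRF2 cells 1 of 5 was called higher, beside 39.0% of genes. When the level was taken from the other line's DMSO libraries, 10 of 28 under 1 CPM were called higher in NRF2 cells, beside 6.09% of genes listed. At or above 1 CPM 11 of 15 were, beside 35.6%. In EV cells the counts were 10 of 27 and 13 of 16, beside 5.69% and 34.6%. These are again the broad classes.

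**Figure D3:**
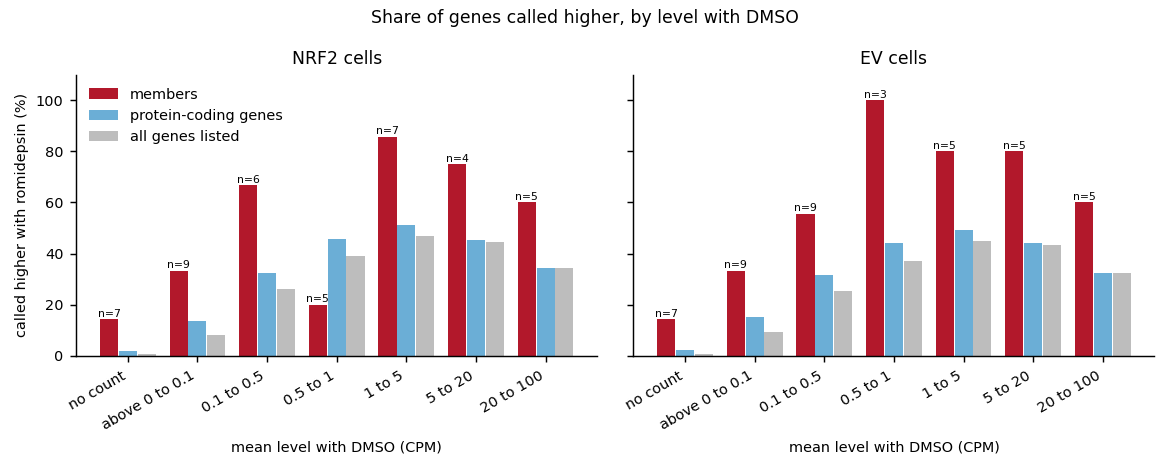
Share of genes called higher with romidepsin (percent) by mean level with DMSO (CPM), for the synaptic and neuronal genes, protein-coding genes and all genes listed, in NRF2 cells on the left and EV cells on the right; n is the number of synaptic and neuronal genes in a class. Their bars stand above both backgrounds except at 0.5 to 1 CPM in NRF2 cells, where 1 of 5 was called.

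Promoter sequence (250 bases before to 50 after the start site, RefSeq, build GRCm38.p6) was at hand for 28 of the 43 genes. The motifs searched, on both strands, and the promoters shown were chosen after the expression values were seen. The RE1 core (CAGCACC, any 2 bases, then GGACAG) with at most 1 mismatch stood in a promoter of 2 of the 28, Syn1 and Slc17a6, and in a promoter of 0.211% of the 27025 genes in the table, where some genes have several. Those promoters are shown because they carry that match, in capitals, at chrX:20920869-20921168 on the minus strand and chr7:51621580-51621879 on the plus strand.
Syn1: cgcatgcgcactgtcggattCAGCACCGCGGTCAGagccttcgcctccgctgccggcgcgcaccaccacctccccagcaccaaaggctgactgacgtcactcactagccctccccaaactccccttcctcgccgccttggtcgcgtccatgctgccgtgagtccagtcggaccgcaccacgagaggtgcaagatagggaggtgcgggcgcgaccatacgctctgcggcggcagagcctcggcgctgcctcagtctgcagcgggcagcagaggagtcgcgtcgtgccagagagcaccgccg
Slc17a6: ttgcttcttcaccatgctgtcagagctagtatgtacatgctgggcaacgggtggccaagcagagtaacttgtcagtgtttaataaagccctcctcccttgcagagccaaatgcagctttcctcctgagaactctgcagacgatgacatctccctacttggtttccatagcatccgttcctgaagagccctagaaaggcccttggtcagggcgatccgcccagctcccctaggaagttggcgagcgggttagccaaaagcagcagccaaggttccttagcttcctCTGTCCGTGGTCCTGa
The match begins at position -230 from the start site in Syn1 and at position 35 in Slc17a6, where it lies on the opposite strand. A match is a description of the letters, and its absence from the other windows says nothing of REST binding elsewhere in those genes.

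The GC box GGGCGG stood in at least 1 promoter of 24 of the 28 genes and of 38.2% of all genes in the table. To set a gene that was among the most raised beside one that had no count, the promoters of Slc17a7 (chr7:45163671-45163970, plus strand) and Ina (chr19:47014431-47014730, plus strand) follow, with GC boxes of either strand in capitals.
Slc17a7: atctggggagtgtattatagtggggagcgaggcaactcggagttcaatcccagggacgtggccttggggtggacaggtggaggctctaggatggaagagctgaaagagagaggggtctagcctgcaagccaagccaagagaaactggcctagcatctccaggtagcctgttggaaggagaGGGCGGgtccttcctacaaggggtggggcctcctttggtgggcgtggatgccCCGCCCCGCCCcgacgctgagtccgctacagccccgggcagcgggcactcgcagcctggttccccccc
Ina: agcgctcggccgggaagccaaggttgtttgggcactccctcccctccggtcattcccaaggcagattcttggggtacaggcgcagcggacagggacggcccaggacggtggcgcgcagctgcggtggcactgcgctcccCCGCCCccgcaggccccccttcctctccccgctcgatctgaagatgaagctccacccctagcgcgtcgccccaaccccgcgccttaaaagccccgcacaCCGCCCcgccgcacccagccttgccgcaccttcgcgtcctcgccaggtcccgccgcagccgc
Both hold GC boxes, Slc17a7 with 13 CpG dinucleotides in the 300 bases and Ina with 32. With 1 promoter taken for each gene, the median was 19 CpG (range 13 to 25) in the 5 promoters at hand of genes at least 10-fold higher in both lines, and 23 (6 to 40) in the 9 of genes that were not tested. The other 14 genes tested had a median of 20 (8 to 37), and the median over 27025 genes was 8. The cAMP response element TGACGTCA was found in Syn1 alone of the 28 and in 2.03% of all genes, and TATAAA in Gad1 and Elavl3 and in 15.7% of all genes.

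Of the 13 genes of vesicles and the release machinery, 7 rose in both lines, namely Syn1, Syp, Snap25, Stx1a, Vamp1, Rab3a and Sv2a. Syn2 and Vamp2 were not called in either line, and Syt1, Syt4, Cplx1 and Cplx2 were not tested. Sv2a, a vesicle glycoprotein (GRCm38 chromosome 3, 96181151 to 96195521, plus strand), measured 24.0, 27.2 and 25.0 CPM in NRF2 cells with romidepsin, against 1.62, 0.837 and 1.21 CPM with DMSO. EV cells had 18.9, 17.5 and 20.8 CPM of Sv2a with romidepsin, against 1.55, 1.66 and 1.16 CPM with DMSO. Every romidepsin library lay above every DMSO library, with a fold of 21.2 in NRF2 and 13.4 in EV cells (edgeR adjusted p = 3.1e-14 and 4.1e-13).

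Syn1 encodes synapsin I, which tethers vesicles to the cytoskeleton (chromosome X, 20860511 to 20921004, minus strand). Its level was 26.5, 30.1 and 31.2 CPM in NRF2 cells with romidepsin, against 3.05, 2.85 and 3.70 CPM with DMSO. In EV cells Syn1 stood at 38.6, 39.0 and 41.4 CPM with romidepsin, against 3.20, 2.90 and 3.55 CPM with DMSO. The treatments did not overlap, and the log2 fold change was 3.21 ± 0.10 (SE) in NRF2 and 3.61 ± 0.10 in EV cells (edgeR adjusted p = 1e-14 and 4.3e-15). Rab3a, the small GTPase of vesicle docking (chromosome 8, 70754679 to 70758677, plus strand), measured 43.7, 46.1 and 46.1 CPM in NRF2 cells with romidepsin, against 4.87, 3.69 and 3.33 CPM with DMSO. For EV cells the Rab3a values were 42.6, 39.3 and 41.3 CPM with romidepsin, against 3.36, 3.79 and 4.44 CPM with DMSO. Its libraries kept apart by treatment, and the fold was 11.4 in NRF2 and 10.5 in EV cells (edgeR adjusted p = 3.3e-15 and 1.2e-14).

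The remaining rises in this role were of 2.22- to 4.13-fold apart from Syp, which differed between the lines and is described with them. The SNARE genes Snap25 (4.13-fold in NRF2, 3.23-fold in EV cells), Stx1a (2.55- and 2.46-fold) and Vamp1 (2.79- and 2.22-fold) had edgeR adjusted p-values of 1.1e-09 or less. The SNARE gene Vamp2 averaged 48.6 ± 1.74 CPM with romidepsin and 50.7 ± 7.78 CPM with DMSO in NRF2 cells (SD, n = 3 each), and 50.3 ± 1.98 CPM with romidepsin and 46.5 ± 1.47 CPM with DMSO in EV cells. In EV cells Vamp2 was called higher with upper-quartile factors (edgeR adjusted p = 0.019), with library size alone (0.012), with the 2 groups fitted alone (0.015) and without NRF2 DMSO replicate 3 (0.035), beside 0.21 in the fit of all libraries. The calcium sensor Syt1 had 3 counts with romidepsin and 1 with DMSO in NRF2 cells, and 10 counts with romidepsin and none with DMSO in EV cells, which bounds the ratio at 3.22 or more if 3 counts are taken for none. Syt4, Cplx1 and Cplx2 held at most 5 counts in any group.

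Among the 3 genes of transmitter synthesis and loading, the vesicular glutamate transporter gene Slc17a7 (chromosome 7, 45163949 to 45176142, plus strand) rose in both lines and was close to 0 with DMSO. It measured 27.3, 28.6 and 29.1 CPM in NRF2 cells with romidepsin, against 0.0983, 0 and 0.121 CPM with DMSO. The EV libraries held 10.7, 11.5 and 11.5 CPM of Slc17a7 with romidepsin, against 0.0534, 0 and 0 CPM with DMSO. All 6 romidepsin libraries stood above all 6 DMSO libraries. In NRF2 cells Slc17a7 had a fitted fold of 408 (edgeR adjusted p = 1.2e-15). In EV cells, where DMSO libraries held 1 count in all, the ratio was 692 with a 95% counting interval of 124 to 27381. Slc17a7 passed the filter through its romidepsin libraries, so its rise was in part fixed by the filter and the values stand as a description.

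Slc17a6, the other vesicular glutamate transporter of the list, averaged 0.647 ± 0.330 CPM with romidepsin and 0.501 ± 0.208 CPM with DMSO in NRF2 cells, which was not called. In EV cells it averaged 0.881 ± 0.0897 CPM with romidepsin and 0.380 ± 0.0742 CPM with DMSO (SD, n = 3 each), a 2.25-fold rise (edgeR adjusted p = 0.013). Gad1, which makes the inhibitory transmitter GABA, held at most 4 counts in any group and was not tested.

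Of the 4 postsynaptic scaffolds, Dlg4 and Shank2 rose in both lines. Dlg4, which encodes PSD-95 (chromosome 11, 70016942 to 70047522, plus strand), measured 37.2, 36.7 and 39.3 CPM in NRF2 cells with romidepsin, against 35.0, 31.7 and 31.8 CPM with DMSO. EV libraries had 41.5, 42.9 and 38.8 CPM of Dlg4 with romidepsin, against 34.3, 32.6 and 33.7 CPM with DMSO. The rises were small, 1.15-fold in NRF2 and 1.22-fold in EV cells, though the treatments did not overlap (edgeR adjusted p = 0.005 and 0.00023). Shank2 stayed under 1 CPM, at 0.695 ± 0.256 CPM with romidepsin and 0.0783 ± 0.0190 CPM with DMSO in NRF2 cells, and 0.602 ± 0.190 CPM with romidepsin and 0.201 ± 0.0766 CPM with DMSO in EV cells (SD, n = 3 each). Its folds were 8.50 in NRF2 and 2.80 in EV cells (edgeR adjusted p = 4e-05 and 0.007). Shank1 and Shank3, which were not tested, held 28 and 24 counts with romidepsin and 7 and 3 with DMSO in NRF2 cells, and 13 and 18 with romidepsin and 9 and 0 with DMSO in EV cells.

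The 8 adhesion genes were all tested. In NRF2 cells 6 rose and Nrcam fell, in EV cells 7 rose, and Nlgn3 was called in neither. The presynaptic organiser gene Nrxn2 (chromosome 19, 6418731 to 6544169, plus strand) measured 20.8, 21.3 and 21.6 CPM in NRF2 cells with romidepsin, against 0.442, 0.419 and 0.545 CPM with DMSO. With romidepsin EV cells had 9.04, 8.97 and 10.3 CPM of Nrxn2, against 0.107, 0.178 and 0.193 CPM with DMSO. No library of 1 treatment reached those of the other, and the fold was 45.6 in NRF2 and 56.2 in EV cells (edgeR adjusted p = 7.1e-16 and 1.8e-14).

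Nxph4 encodes a neurexophilin, of a family of secreted neurexin ligands (chromosome 10, 127525473 to 127534559, minus strand). It stood at 13.0, 13.0 and 13.1 CPM in NRF2 cells with romidepsin, against 0.0492, 0.0381 and 0 CPM with DMSO, and with 2 counts in those DMSO libraries the ratio was 411 (95% counting interval 114 to 3402). EV cells showed 9.33, 7.93 and 8.97 CPM of Nxph4 with romidepsin, against 0, 0.0592 and 0.154 CPM with DMSO, a 101-fold rise (edgeR adjusted p = 4.2e-13). In neither line did the treatments overlap. Nxph4 also passed the filter through its romidepsin libraries, so its rise was in part fixed by the filter. L1cam, a cell adhesion molecule of growing axons (chromosome X, 73853778 to 73896105, minus strand), measured 6.59, 9.28 and 8.04 CPM in NRF2 cells with romidepsin, against 0.246, 0.152 and 0.242 CPM with DMSO. Its EV values were 14.9, 14.0 and 13.8 CPM with romidepsin, against 0.267, 0.355 and 0.463 CPM with DMSO. The treatments did not overlap, and the fold was 37.8 in NRF2 and 37.6 in EV cells (edgeR adjusted p = 4.9e-13 and 9.3e-14).

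Ncam1, the neural cell adhesion molecule (chromosome 9, 49502136 to 49798925, minus strand), measured 171, 168 and 178 CPM in NRF2 cells with romidepsin, against 39.2, 42.9 and 46.5 CPM with DMSO. EV cells had 147, 143 and 146 CPM of Ncam1 with romidepsin, against 42.0, 40.0 and 44.6 CPM with DMSO. The rise was 4.02-fold in NRF2 and 3.44-fold in EV cells, with no overlap (edgeR adjusted p = 2.7e-15 and 2.2e-14). The postsynaptic neuroligin gene Nlgn2 rose by 1.17-fold in NRF2 and 1.23-fold in EV cells (edgeR adjusted p = 0.0057 and 0.00095).

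The neurexin gene Nrxn3 measured 0.655, 1.41 and 1.20 CPM in NRF2 cells with romidepsin, against 0.590, 0.457 and 0.303 CPM with DMSO. In EV cells Nrxn3 stood at 0.638, 0.586 and 0.283 CPM with romidepsin, against 0.0534, 0.355 and 0.193 CPM with DMSO, so that the EV treatments overlapped. The edgeR adjusted p was 0.0091 in NRF2 and 0.038 in EV cells. The NRF2 call was lost without NRF2 romidepsin replicate 2 (0.075), and the EV call without EV DMSO replicate 1 or 3 (0.15 and 0.095) or EV romidepsin replicate 1 or 2 (0.12 and 0.11).

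**Figure D4:**
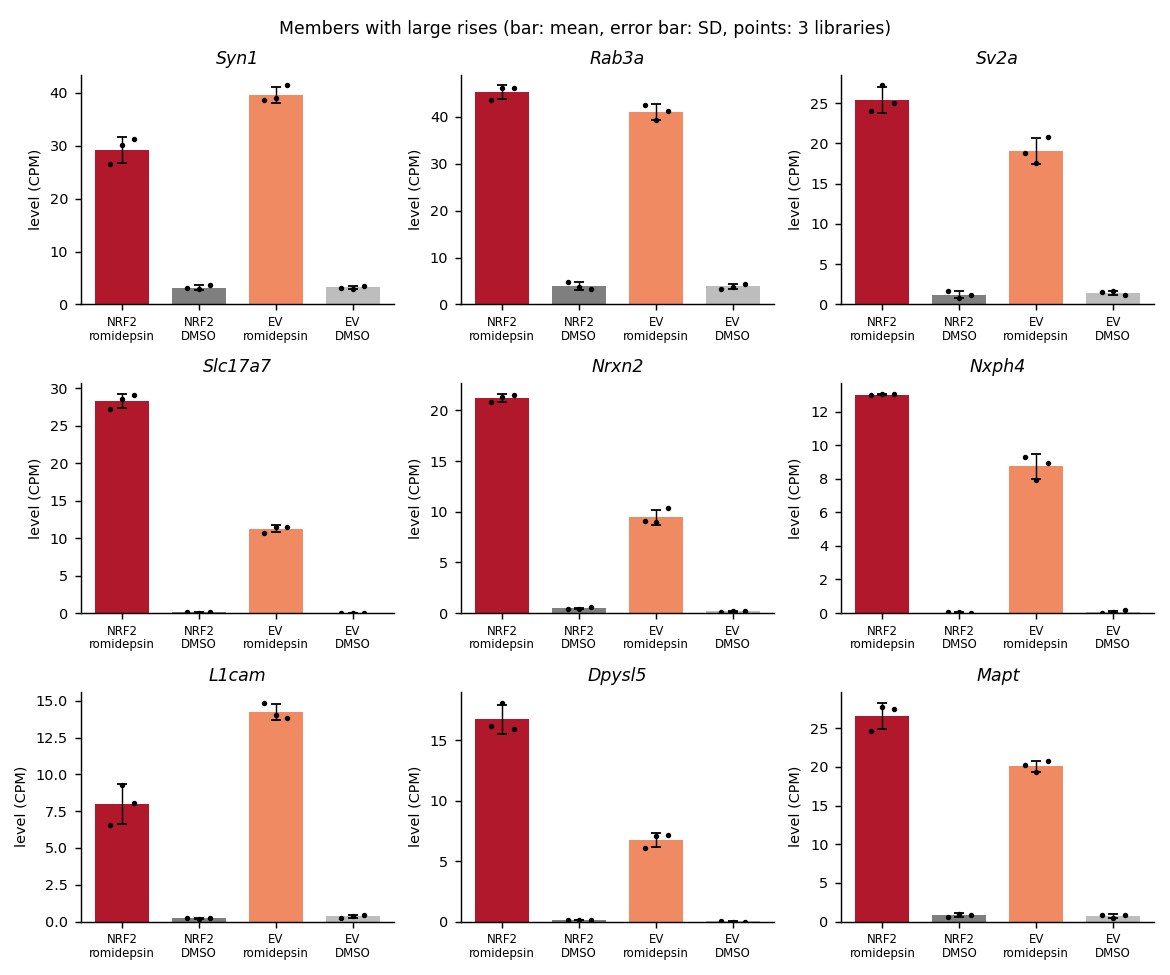
Levels of 9 strongly raised genes in CPM, with bars for group means, error bars for the SD and points for the 3 libraries, in the order NRF2 with romidepsin, NRF2 with DMSO, EV with romidepsin and EV with DMSO. In each panel the romidepsin points lie above all DMSO points.

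Of the 6 genes of growth cones and microtubules, Dpysl5, Map2 and Mapt rose in both lines, Gap43 rose in NRF2 cells, and the tubulin-binding stathmin genes Stmn2 and Stmn3 were not tested. Dpysl5, a collapsin response mediator of axon guidance (chromosome 5, 30711564 to 30799375, plus strand), measured 16.2, 18.1 and 15.9 CPM in NRF2 cells with romidepsin, against 0.147, 0.152 and 0.121 CPM with DMSO, a 113-fold rise (edgeR adjusted p = 4.3e-15). EV libraries held 6.04, 7.03 and 7.13 CPM of Dpysl5 with romidepsin, against 0.0534, 0 and 0 CPM with DMSO, and the ratio was 415 (95% counting interval 74.1 to 16436) against the single DMSO count. Neither line showed overlap between the treatments. Dpysl5 passed the filter through its romidepsin libraries, so its rise was in part fixed by the filter.

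Mapt encodes tau, which stabilises axonal microtubules (chromosome 11, 104231390 to 104332090, plus strand). Its level was 24.7, 27.7 and 27.5 CPM in NRF2 cells with romidepsin, against 0.590, 0.989 and 0.909 CPM with DMSO. EV cells had 20.2, 19.3 and 20.7 CPM of Mapt with romidepsin, against 0.801, 0.474 and 0.887 CPM with DMSO. These values did not overlap, and the fold was 31.6 in NRF2 and 26.8 in EV cells (edgeR adjusted p = 2.7e-15 and 1.8e-14). Map2, the dendritic counterpart of tau (chromosome 1, 66175273 to 66442583, plus strand), measured 55.2, 53.5 and 56.5 CPM in NRF2 cells with romidepsin, against 9.14, 9.10 and 9.88 CPM with DMSO. For EV cells the Map2 values were 50.7, 50.2 and 53.0 CPM with romidepsin, against 11.8, 9.95 and 8.87 CPM with DMSO. The 5.89-fold rise in NRF2 and 5.06-fold rise in EV cells again separated the treatments (edgeR adjusted p = 5.5e-15 and 3.1e-14). Stmn2 held 22 counts with romidepsin and 3 with DMSO in NRF2 cells, and 25 with romidepsin and 5 with DMSO in EV cells.

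Among the 4 intermediate filament genes, the neurofilament light chain gene Nefl (chromosome 14, 68083863 to 68089095, plus strand) was the one tested. It had 2.10, 2.14 and 2.51 CPM in NRF2 cells with romidepsin and no count with DMSO, at least 46.9-fold higher when the group without counts is set to 3. EV cells had 0.442, 0.586 and 0.755 CPM of Nefl with romidepsin and no count with DMSO, at least 12.2-fold higher. Without a count in DMSO, Nefl passed the filter through its romidepsin libraries alone. Its rise was therefore in part fixed by the filter, and the values stand as a description. Nefl shares 32.8% of its exonic bases with Nefm on the opposite strand, and whether counting used strand is not given in the sources used here. Nefm averaged at most 0.0843 CPM in any group, and Nefh held at most 2 counts.

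Of the 3 neuronal RNA-binding proteins of the ELAV family, Elavl3 rose in EV cells, Elavl2 was not called in either line, and Elavl4, with at most 4 counts in a group, was not tested. In neurotrophin signalling, Bdnf, the brain-derived neurotrophic factor (chromosome 2, 109674700 to 109727007, plus strand), fell in both lines. It measured 17.2, 14.8 and 16.2 CPM in NRF2 cells with romidepsin, against 26.4, 30.3 and 28.7 CPM with DMSO. EV libraries held 27.0, 28.4 and 27.7 CPM of Bdnf with romidepsin, against 49.9, 46.2 and 47.6 CPM with DMSO. All romidepsin values lay below the DMSO values of their line, and the log2 fold change was -0.83 ± 0.07 (SE) in NRF2 and -0.79 ± 0.06 in EV cells (edgeR adjusted p = 4.8e-09 and 4e-09). Its receptor gene Ntrk2 was not tested; it held 20 counts with romidepsin and 6 with DMSO in NRF2 cells, and 5 with romidepsin and 13 with DMSO in EV cells.

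Between the lines, the response to romidepsin differed for 3 of the 29 genes tested. Syp responded more in NRF2 cells, and Nrcam and Elavl3 less, beside 5.53% and 10.2% of all genes tested with a larger or smaller response in NRF2 cells. Nrcam, a neuronal adhesion molecule of the L1 family (chromosome 12, 44328885 to 44601964, plus strand), measured 10.1, 11.7 and 11.0 CPM in NRF2 cells with romidepsin, against 13.8, 15.0 and 14.7 CPM with DMSO. EV cells had 3.19, 3.92 and 3.73 CPM of Nrcam with romidepsin, against 2.14, 1.72 and 2.08 CPM with DMSO. It fell by 1.32-fold in NRF2 cells and rose by 1.81-fold in EV cells without overlap in either (edgeR adjusted p = 0.00087 and 2.5e-05), and the difference of the log2 fold changes, NRF2 minus EV, was -1.26 ± 0.17 (SE; edgeR adjusted p = 8.4e-05).

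Syp, which encodes the vesicle membrane protein synaptophysin (chromosome X, 7638471 to 7653256, plus strand), measured 19.9, 18.5 and 17.3 CPM in NRF2 cells with romidepsin, against 1.28, 1.56 and 1.27 CPM with DMSO. In EV cells Syp stood at 5.94, 5.72 and 6.04 CPM with romidepsin, against 0.694, 0.770 and 0.849 CPM with DMSO. The rise was 13.3-fold in NRF2 and 7.53-fold in EV cells, a difference of log2 0.82 ± 0.22 (SE; edgeR adjusted p = 0.028). That difference was lost with DESeq2 (adjusted p = 0.057), when replicate 2 or 3 of the EV DMSO libraries was left out (0.062 and 0.15), or replicate 1 of the NRF2 DMSO libraries (0.058) or of the NRF2 romidepsin libraries (0.051). The annotation places an antisense gene over 16.8% of the exonic bases of Syp.

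Elavl3 measured 0.982, 0.738 and 1.03 CPM in NRF2 cells with romidepsin, against 1.47, 1.41 and 1.03 CPM with DMSO, which was not called (log2 -0.55 ± 0.27; edgeR adjusted p = 0.073). Its EV values were 1.47, 1.40 and 0.897 CPM with romidepsin, against 0.534, 0.415 and 0.694 CPM with DMSO, a 2.21-fold rise without overlap (edgeR adjusted p = 0.0023). The difference was log2 -1.70 ± 0.41 (edgeR adjusted p = 0.0087). Without replicate 3 of NRF2 cells with DMSO, the fall of Elavl3 in NRF2 cells was called (log2 -0.69; edgeR adjusted p = 0.039).

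With romidepsin, 13 of the 29 genes tested were higher in NRF2 than in EV cells and 5 lower, beside 23.0% and 22.4% of all genes tested. The difference was at least 2-fold for 7 of those higher and 2 of those lower, beside 4.10% and 1.47%. With DMSO 6 of the 29 were higher and 4 lower, beside 19.3% and 16.9%. The genes higher with DMSO were Syp, Nlgn2, Nrxn2, Nrcam, Dpysl5 and Elavl3, and those lower were Snap25, Gap43, Elavl2 and Bdnf. Dpysl5 with DMSO held 9 counts in NRF2 and 1 in EV cells, a ratio of 8.77 (95% counting interval 1.22 to 385), and its call (edgeR adjusted p = 0.024) was lost with DESeq2 (0.061), when replicate 2 or 3 of the EV DMSO libraries was left out (0.079 and 0.14) and when replicate 2 of the NRF2 DMSO libraries was (0.061). The Snap25 call, at an edgeR adjusted p of 0.048, was lost with a replicate block (0.059), with DESeq2 (0.067), with the 2 groups fitted alone (0.17) and without NRF2 DMSO replicate 2 (0.33). The Snap25 response to romidepsin, which did not differ between the lines at an edgeR adjusted p of 0.22, did so without replicate 3 of NRF2 cells with DMSO (0.028).

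Nrcam had a level 7.25-fold higher in NRF2 than in EV cells with DMSO and 3.02-fold higher with romidepsin (edgeR adjusted p = 9.7e-12 and 8.4e-09). Syp was 3.14-fold higher in NRF2 cells with romidepsin and 1.78-fold higher with DMSO (edgeR adjusted p = 9.5e-10 and 0.0044). With romidepsin Slc17a7 was 2.52-fold, Dpysl5 2.49-fold, Nrxn2 2.25-fold, Nrxn3 2.18-fold and Nefl 3.73-fold higher in NRF2 than in EV cells (edgeR adjusted p = 4.5e-08, 6.8e-08, 2.4e-08, 0.029 and 0.0001). For Nrxn3 the call was lost without NRF2 romidepsin replicate 2 or 3 (0.18 and 0.075) or EV romidepsin replicate 2 or 3 (0.056 and 0.14).

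Gap43, a growth cone protein (chromosome 16, 42248442 to 42340651, minus strand), was lower in NRF2 than in EV cells. Its libraries read 3.83, 3.30 and 3.88 CPM in NRF2 cells with romidepsin, 2.65, 2.32 and 1.82 CPM in NRF2 cells with DMSO, 8.79, 8.16 and 7.69 CPM in EV cells with romidepsin, and 6.57, 7.28 and 7.91 CPM in EV cells with DMSO. All 6 NRF2 libraries lay below all 6 EV libraries, by 2.25-fold with romidepsin and 3.18-fold with DMSO (edgeR adjusted p = 1.3e-06 and 6.1e-08). With romidepsin Gap43 rose by 1.59-fold in NRF2 cells (edgeR adjusted p = 0.00057). It was not called in EV cells (0.19), where upper-quartile factors (0.035) and library size alone (0.031) gave a call; the difference between the lines did not pass the test (0.091).

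Elavl2 read 0.888, 0.316 and 0.799 CPM in NRF2 cells with romidepsin, 0.492, 0.457 and 0.606 CPM in NRF2 cells with DMSO, 1.47, 1.22 and 1.84 CPM in EV cells with romidepsin, and 1.495, 0.888 and 1.23 CPM in EV cells with DMSO. NRF2 cells were lower by 2.36-fold with romidepsin and 2.37-fold with DMSO (edgeR adjusted p = 0.0054 and 0.011), and the call with DMSO was lost without replicate 1 of EV cells with DMSO (0.052). Bdnf was lower in NRF2 than in EV cells by 1.73-fold with romidepsin and 1.68-fold with DMSO (edgeR adjusted p = 1.4e-07 and 8.7e-08).

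**Figure D5:**
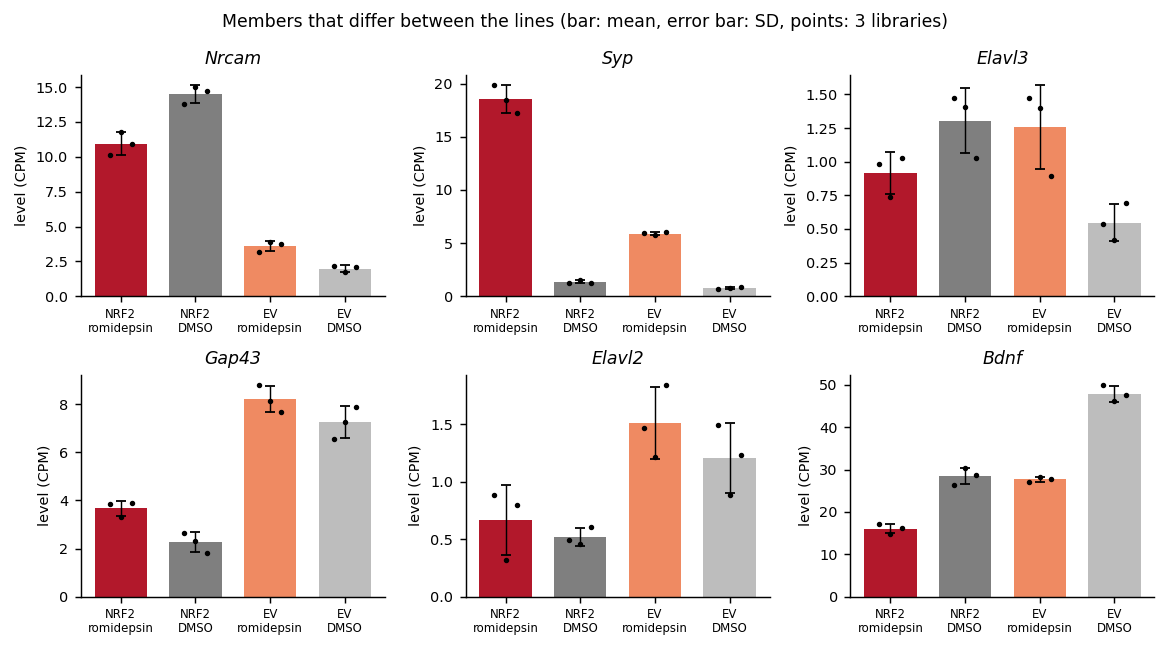
Levels in CPM of 6 genes that differed between the lines, with bars for group means, error bars for the SD and points for the 3 libraries, in the order NRF2 with romidepsin, NRF2 with DMSO, EV with romidepsin and EV with DMSO. Nrcam stands higher in both NRF2 groups and Gap43 and Elavl2 lower, while Bdnf is lower with romidepsin in each line.

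A wider list of 150 other genes of the same roles was read beside the 43. Of these 91 were tested; 59 were higher and 24 lower with romidepsin in NRF2 cells, and 56 higher and 22 lower in EV cells, against the shares of all genes given above. Of 30 vesicle genes tested in the wider list, 24 rose and 5 fell in NRF2 cells, and 23 rose and 3 fell in EV cells. Those raised included Syngr3, a synaptogyrin (12.7-fold in NRF2, 10.3-fold in EV cells), Syt17 (14.0- and 13.3-fold) and the active zone scaffold gene Pclo (13.0- and 13.7-fold). Their edgeR adjusted p-values were 9.1e-09 or less. Of 3 transmitter genes tested, 1 rose and 1 fell in NRF2 cells, and 0 rose and 1 fell in EV cells.

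Postsynaptic genes of the wider list were split, with 6 higher and 5 lower of 14 in NRF2 cells and 5 higher and 4 lower in EV cells. Grin1, the obligate NMDA receptor subunit, averaged 3.10 CPM with romidepsin and 0.115 CPM with DMSO in NRF2 cells, and 2.02 CPM with romidepsin and 0.185 CPM with DMSO in EV cells (edgeR adjusted p = 2e-09 and 1.3e-07). The scaffold gene Dlgap3 had no count with DMSO and was at least 24.4-fold higher in NRF2 and at least 18.7-fold higher in EV cells. Of 11 adhesion genes tested in the wider list, 6 rose and 3 fell in NRF2 cells, and 6 rose and 4 fell in EV cells. The neurexophilin Nxph3 rose by 31.8-fold in NRF2 and 26.8-fold in EV cells, Cntnap2 by 10.8- and 4.71-fold and Lrfn1 by 5.09- and 5.57-fold (edgeR adjusted p of 2.7e-05 or less each).

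Of 14 growth cone and microtubule genes tested in the wider list, 10 rose and 4 fell in NRF2 cells, and 9 rose and 5 fell in EV cells. Those named for their size were Map1a, higher by 11.2-fold in NRF2 and 32.6-fold in EV cells, and Dclk1, higher by 42.98- and 15.4-fold (edgeR adjusted p of 2.4e-08 or less each). Stmn4 averaged 1.10 CPM with romidepsin and 0.0544 CPM with DMSO in NRF2 cells, and in EV cells 0.659 CPM with romidepsin and no count with DMSO. The peripheral neurofilament gene Prph averaged 4.09 CPM with romidepsin and 0.191 CPM with DMSO in NRF2 cells, and 1.26 CPM with romidepsin and 0.0197 CPM with DMSO in EV cells. Of 8 neuronal RNA-binding genes tested in the wider list, 3 rose and 4 fell in NRF2 cells, and 3 rose and 5 fell in EV cells. The neuronal splicing factor gene Nova2 rose by 40.0-fold in NRF2 and 31.9-fold in EV cells and Celf5 by 50.5- and 26.4-fold, while Ptbp2, the splicing repressor of young neurons, fell by 8.28- and 4.42-fold (edgeR adjusted p of 3.2e-13 or less each). In neurotrophin signalling Ret, the GDNF receptor kinase, rose by 104-fold in NRF2 and 41.5-fold in EV cells and the sorting receptor gene Sort1 by 9.94- and 10.2-fold (edgeR adjusted p of 1.4e-13 or less each).

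Of REST and 11 of its partners, 4 were higher and 6 lower with romidepsin in each line (4 and 6 of 12), beside the shares of all genes tested (40.5% higher and 39.3% lower in NRF2 cells, 39.1% and 37.4% in EV cells). Rest averaged 38.3 ± 1.51 CPM with romidepsin and 64.8 ± 5.51 CPM with DMSO in NRF2 cells, and 38.0 ± 2.79 CPM with romidepsin and 66.9 ± 2.52 CPM with DMSO in EV cells (SD, n = 3 each). Ctdsp1, a phosphatase of the REST complex, fell by 3.03-fold in NRF2 and 2.91-fold in EV cells, Ehmt2 fell by 1.85- and 1.76-fold, and Rest fell by 1.69- and 1.76-fold (edgeR adjusted p of 6.9e-09 or less each). The partner gene Rcor3 fell by 1.895-fold in NRF2 and 1.63-fold in EV cells (edgeR adjusted p = 2.9e-06 and 5.7e-05). Hdac1 rose by 1.83-fold in NRF2 and 1.75-fold in EV cells (edgeR adjusted p = 2.9e-12 and 1.3e-11).

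Markers of other cell types were read beside the rises. Of 12 neuroendocrine and neuronal lineage factors, Isl1 had no count in any group, and Neurod1 and Rbfox3 averaged at most 0.0542 CPM. Their summed level was lower with romidepsin, at 15.9 to 16.1 CPM against 37.6 to 42.1 CPM with DMSO in NRF2 cells and 19.45 to 23.6 CPM against 52.6 to 58.5 CPM in EV cells, mostly through Sox2 and Insm1. Neurog2 and Chga went the other way: Neurog2 averaged 1.01 CPM with romidepsin in NRF2 and 0.451 CPM in EV cells and had no count with DMSO, and Chga averaged 1.96 CPM with romidepsin and 0.0708 CPM with DMSO in NRF2 cells and 0.695 CPM with romidepsin and 0.128 CPM with DMSO in EV cells.

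Of 7 leukocyte markers, the summed level was 70.0 to 74.3 CPM with romidepsin and 4.30 to 4.87 CPM with DMSO in NRF2 cells, and 50 to 55.4 CPM with romidepsin and 2.88 to 4.44 CPM with DMSO in EV cells. Most of it was the lysosomal gene Cd68, while Ptprc, which marks leukocytes, averaged at most 0.549 CPM. Of 8 glial markers the sum was 17.7 to 19.7 CPM with romidepsin and 10.8 to 11.7 CPM with DMSO in NRF2 cells and 15.7 to 17.2 CPM with romidepsin and 10.65 to 12.4 CPM with DMSO in EV cells, and Olig2 had no count. The 10 mesenchymal markers summed to 6033 to 6407 CPM with romidepsin and 4389 to 4493 CPM with DMSO in NRF2 cells and 7209 to 7362 CPM with romidepsin and 5044 to 5159 CPM with DMSO in EV cells. Vim made up most of that sum, while Fn1 fell, to 834 CPM with romidepsin, against 1360 CPM with DMSO, in NRF2 cells and to 1141 CPM with romidepsin, against 1656 CPM with DMSO, in EV cells (edgeR adjusted p = 7.1e-09 and 3.2e-07). Of the 6 mesenchymal markers tested, 4 rose and 2 fell in NRF2 cells, and 3 rose and 2 fell in EV cells. The 5 endothelial markers summed to at most 10.4 CPM in any library. The part of these shifts, and of those in the epithelial list, in the results on the 43 genes was not tested.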

How the data were processed

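The authors deposited a table of estimated counts per gene and a table of normalized signal values for the 12 libraries. Per the submitters' processing notes, bcl2fastq 2.19, kallisto 0.44.0 and DESeq2 were used with build GRCm38; whether reads were assigned by strand is not given in the sources used here. The deposited estimated counts are whole numbers, and the deposited signal values are these counts divided by 1 size factor per library, as checked on the files.

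The estimated counts were read into edgeR 4.0.16 (R 4.3.3) with TMM factors and its filter on low counts by group. The 4 groups were fitted together with the robust quasi-likelihood method (8 residual degrees of freedom), and p-values were Benjamini-Hochberg adjusted over the 13502 genes tested. Fitted log2 fold changes carry a prior count of 0.125. Where a group held no count, a bound against a floor of 3 counts is given, and where it held 1 to 3 counts, the ratio with its 95% exact interval. With 3 libraries a group, counts of low genes limit the precision.

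The 43 genes, their roles and the marker and pathway lists were chosen with earlier results of these data known. Within a role, all libraries were printed for up to 4 genes called with romidepsin, at least 1 CPM in the higher group and of the largest change; also for genes that moved against their role, or that differed between the lines by a log2 of at least 1 or in both romidepsin responses. Other genes of the roles were named by size, up to 3 a role; Hdac1 and untested genes were named after their values were seen. Gene positions are from GENCODE M21 (GRCm38). Alternatives were other scaling factors, other filters, DESeq2 1.42.0, limma 3.58.1, only the groups compared, a replicate block and each library left out in turn; a pseudocount of 0.1, an adjusted p under 0.01 and a protein-coding background were added after seeing the data. Same-numbered libraries did not deviate together, so the replicate numbers were not taken as pairs. Some genes of the wider lists are not reported here.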

Additional observations from a re-analysis of the deposited data

Results flagged for a closer look

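The test of the difference between the lines passed for 3 genes, whose response to romidepsin, NRF2 minus EV cells on the log2 scale, was 0.82 for Syp, -1.26 for Nrcam and -1.70 for Elavl3. Nrcam fell in NRF2 cells and rose in EV cells. Elavl3 rose in EV cells and was not called in NRF2 cells, and Syp rose in both. Of all genes tested, 5.53% had a larger and 10.2% a smaller response in NRF2 cells. The Syp difference was lost with DESeq2 and in several fits that left out a single library.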

How the results depend on the processing

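No result changed direction past a threshold under the alternatives tried. The number of genes higher in NRF2 than in EV cells with romidepsin was 6 with limma-trend on normalized values plus 0.1, beside 13, and the number lower with DMSO was 2 at an adjusted p under 0.01, beside 4. Over all genes tested the same numbers were 2510, beside 3107, and 1503, beside 2287. Of the synaptic and neuronal genes, 1 had a larger response in NRF2 cells. That number was 2 with library size alone and with limma-trend on normalized values plus 1. It was 0 with DESeq2 and at an adjusted p under 0.01. Over all genes tested the numbers with a larger response were 884, 767, 697 and 309 in that order, beside 747. The cause was not tested. With each library left out in turn, romidepsin raised 20 to 21 of the synaptic and neuronal genes and lowered 2 to 3 in NRF2 cells. It raised 22 to 24 and lowered 1 in EV cells. Over all genes tested it raised 5240 to 5551 and lowered 5141 to 5575 in NRF2 cells. In EV cells it raised 5058 to 5608 and lowered 4874 to 5312. Synaptic and neuronal genes higher and lower in NRF2 than in EV cells numbered 11 to 13 and 5 to 7 with romidepsin. With DMSO they numbered 5 to 7 and 2 to 4, and those with a larger and smaller response 0 to 3 and 2. Over all genes tested the counts were 2553 to 3477 and 2508 to 3882 with romidepsin, and 2244 to 3089 and 1865 to 2717 with DMSO. Larger and smaller responses over all genes tested numbered 465 to 921 and 959 to 2127. The fall to 2 with DMSO came without replicate 1 of EV cells with DMSO, where 2028 of all genes tested were lower. Counts of 0 for a larger response came without EV DMSO replicate 2 or 3 or NRF2 romidepsin replicate 1. The count of 3 came without replicate 3 of NRF2 cells with DMSO. All genes with a larger response numbered 552, 609, 536 and 921 in those fits, in that order. With the replicate block 21 synaptic and neuronal genes were higher and 2 lower with romidepsin in NRF2 cells. In EV cells 23 were higher and 1 lower. Between lines the counts were 13 and 5 with romidepsin, 6 and 3 with DMSO, and 1 and 2 for the difference in response. Over all genes tested the counts were, in the same order, 5441 and 5251, 5216 and 5019, 2945 and 2903, 2507 and 2129, and 637 and 1221. Same-numbered libraries correlated between -0.123 and 0.0625, so the replicate numbers do not show a pairing. Upper-quartile factors and library size alone moved the median of all genes under romidepsin by over 0.1 on the log2 scale. Genes of a few counts per library, among them the 14 not tested, could not be compared at this depth.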
